A study of Mus musculus with 20 samples.

Results

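The tachykinin genes followed here are Tac1, Tac2, Tacr1 and Tacr3, taken by symbol from a table of RNA sequencing counts, which made 4 of the 12988 genes measured. The tissue, from female and male mice, was the bed nucleus of the stria terminalis in its anterodorsal portion (adBNST), a small forebrain region of the extended amygdala. Mice were 7 to 9 weeks old when they were assigned either to control conditions or to chronic variable mild stress (CVMS), a schedule of changing minor stressors that ran for 6 weeks. All mice, controls included, were killed under ketamine, the stressed ones 1 hour after wet bedding as the final stressor. The strain and genotype are not given in the sources used here. Each of the 4 groups (controls and stressed mice of either sex) had 15 mice, whose tissue was pooled by 3 before RNA extraction, so each group had 5 libraries. A library is therefore an average over 3 mice.

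Tachykinins are short amidated neuropeptides cut from larger precursors. The Tac1 precursor holds substance P and neurokinin A, and the Tac2 precursor holds neurokinin B. The peptides act on receptors coupled to Gq: Tacr1 encodes NK1, the preferred receptor of substance P, and Tacr3 encodes NK3, the preferred receptor of neurokinin B. In the forebrain Tac1 is a marker of striatal projection neurons of the direct pathway, while Tac2 is found in neurons of the central amygdala and the bed nucleus and has been tied in mice to fear and to social isolation. Tac4, a further precursor, and Tacr2, the NK2 receptor, were not among the genes measured and so were not analysed here.

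The coding sequence of each precursor is shown around the tachykinin signature, because the counts add up all transcripts of a gene whatever peptides they encode. Capitals mark the codons for phenylalanine, any residue, glycine, leucine and methionine, which end every mammalian tachykinin, and the codon after them is the glycine that gives the amide. Each line holds 33 bases from GENCODE M21 (build GRCm38), 5′ to 3′ on the plus strand.
Tac1, substance P, chr6:7556735-7556767: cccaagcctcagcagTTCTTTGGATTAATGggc
Tac1, neurokinin A, chr6:7559101-7559133: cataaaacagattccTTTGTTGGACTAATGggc
Tac2, neurokinin B, chr10:127729116-127729148: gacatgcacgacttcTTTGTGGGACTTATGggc

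The Tac1 gene lies on chromosome 6 from 7554879 to 7565834. Its transcripts Tac1-203 and Tac1-205 hold 2 signatures each, whereas Tac1-201 holds 1, the substance P site, which is in exon 3 in each of them. The neurokinin A site is in exon 5 of 6 in Tac1-203 and in exon 6 of 7 in Tac1-205. Tac2 lies on chromosome 10 from 127724478 to 127731768, and both of its coding transcripts hold the same 1 signature, in exon 5 of 7 or exon 6 of 8. A change in Tac1 counts can thus not be assigned to substance P or neurokinin A, while Tac2 counts bear on a single known tachykinin. The receptor genes are long: Tacr1 runs from 82402334 to 82560104 on chromosome 6 and Tacr3 from 134829007 to 134934579 on chromosome 3. No other gene of that annotation overlaps any of the 4.

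Total counts per library ran from 2707881 (female control 4) to 33595388 (male stressed 4). All values of the 4 genes in the 20 libraries were above 0, and the lowest was 37 counts of Tacr3 in female control 4, with an exact 95% Poisson interval of 26.1 to 51.0 counts, or 9.81 to 19.2 CPM (counts relative to library size), which covers counting error only. CPM values below are scaled by the trimmed mean of M-values (TMM), and group values are mean ± SD over 5 libraries. All 10 listed genes of adBNST GABA and peptide neurons were measured, and among them Gad1, which makes GABA, averaged from 670 to 726 CPM in the 4 groups. Not all members of the list were as even. Crh averaged 24.4 CPM in male controls against 16.6 to 17.7 CPM in the other groups. Nts (51.1 against 38.3 to 46.0 CPM) and Cartpt (23.2 against 18.6 to 20.6 CPM) were also highest there, while Penk was lowest (573 against 773 to 846 CPM). Gad1 marks GABA neurons in general, so its level does not tell the adBNST from neighbouring regions. Marker scores of other cells (mean log2 CPM, centred on 0) ranged over the libraries from -0.56 to 0.24 for cholinergic neurons (5 of 5 genes measured), -0.32 to 0.54 for thalamic neurons (7 of 9), -0.29 to 0.25 for the medial habenula (2 of 6), -1.71 to 1.61 for hypothalamic neurons (3 of 9) and -0.44 to 0.43 for oligodendrocytes (14 of 14). They ranged from -0.14 to 0.15 for astrocytes (8 of 8), -0.22 to 0.15 for microglia (7 of 7) and -0.17 to 0.23 for endothelial cells (6 of 6). The score of the adBNST list itself ranged from -0.19 (male stressed 3) to 0.12 (female stressed 1). Its group means were 0.061 ± 0.040 in male controls and 0.005 ± 0.037 in female controls. Stressed females had -0.010 ± 0.101 and stressed males -0.055 ± 0.094. The ends of the hypothalamic range were male stressed 3 (lowest) and female stressed 2 (highest).

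Per kilobase of exon, which allows genes to be compared, the precursors stood well above the receptors in every group. Over all annotated exons of a gene, female controls had 26.4 ± 5.63 CPM per kilobase of Tac2, 24.4 ± 3.86 of Tac1, 4.41 ± 0.522 of Tacr1 and 3.73 ± 0.339 of Tacr3. Male controls had 44.9 ± 9.13 CPM per kilobase of Tac2, 19.5 ± 3.55 of Tac1, 4.42 ± 0.424 of Tacr3 and 4.18 ± 0.130 of Tacr1. Stressed females had 24.1 ± 5.02 CPM per kilobase of Tac1, 23.7 ± 3.94 of Tac2, 4.49 ± 0.434 of Tacr1 and 3.35 ± 0.281 of Tacr3, and stressed males 31.6 ± 9.35 of Tac2, 27.3 ± 4.86 of Tac1, 4.95 ± 0.672 of Tacr1 and 3.53 ± 0.476 of Tacr3. The order of the 2 receptors in male controls lies within their spread, as does that of the precursors in every group but male controls. It also depends on the length used: over the longest coding transcript, female controls had 67.6 ± 10.7 CPM per kilobase of Tac1 and 42.7 ± 9.10 of Tac2, and in male controls Tac2 (72.6 ± 14.8) still exceeded Tac1 (54.0 ± 9.81). Precursors and receptors also differed in how much libraries of 1 group varied. The biological coefficient of variation (the spread between libraries beyond counting error) was 19.4% for Tac2 and 15.8% for Tac1, higher than for 97.6% and 94.3% of all genes, against 9.36% for Tacr1 and 9.34% for Tacr3, higher than for 68.3% and 68.1% of all genes, whose median was 7.72%.

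**Figure D1:**
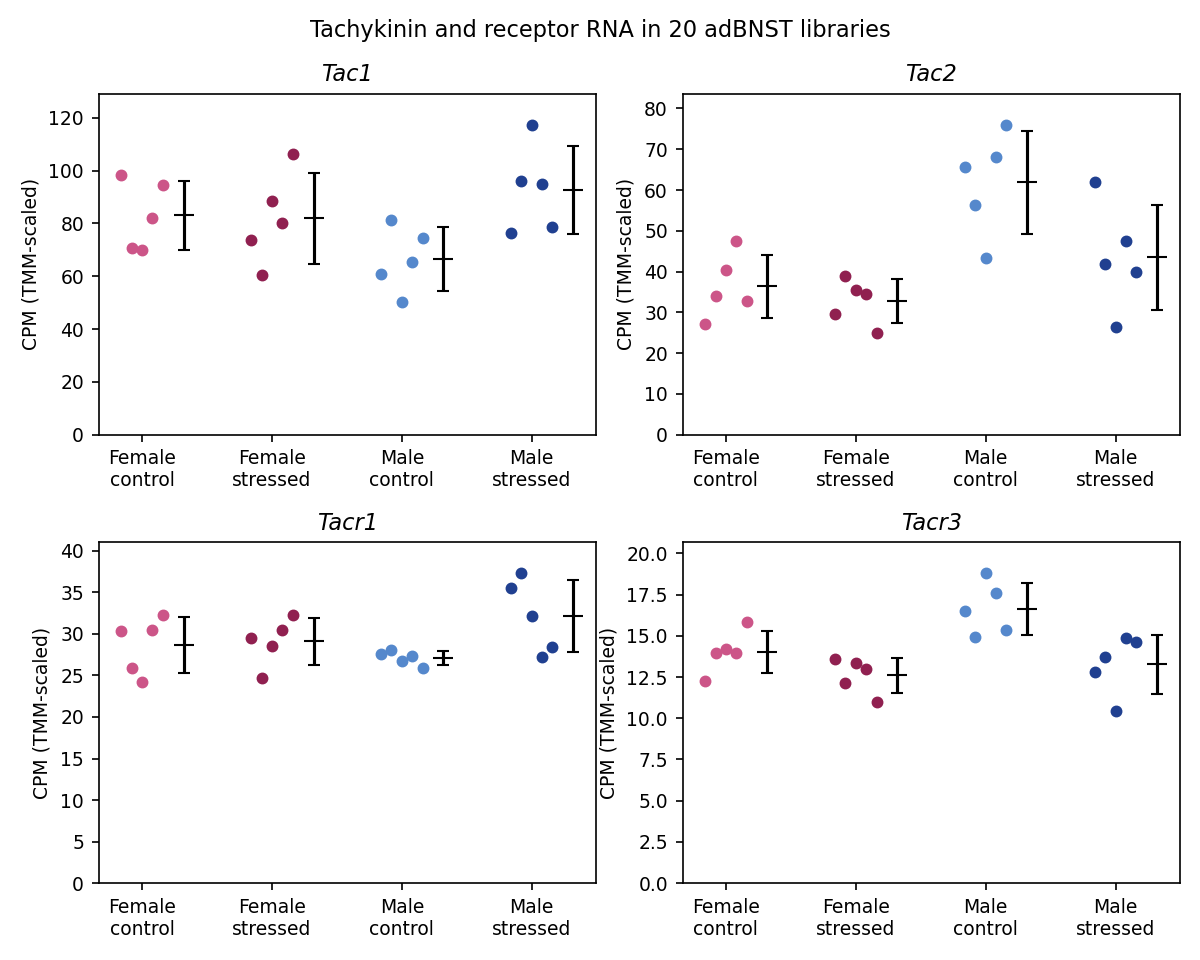
TMM-scaled CPM (y axis, from 0) of each gene in every library, by group. Points are libraries (n = 5 per group) and bars the mean ± SD. Male controls stand highest for Tac2 (61.9 ± 12.6 CPM) and Tacr3 (16.6 ± 1.59 CPM) and lowest for Tac1 (66.4 ± 12.1 CPM).

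Tac2, the neurokinin B precursor, was higher in males than in females among control mice, the 1 call that edgeR made for the 4 genes over 6 contrasts. In female controls 1 to 5 it measured 27.2, 34.1, 40.4, 47.4 and 32.8 CPM, and in male controls 65.7, 56.2, 43.3, 68.1 and 76.1 CPM. Of the male controls, 4 lay above every female control, and male control 3 alone lay below the highest female library, female control 4, which is the shallowest (126 counts of Tac2). The difference, male minus female, was 0.84 on the log2 scale (SE 0.18, 95% interval 0.46 to 1.22), a 1.79-fold level, with an adjusted p of 0.0306 by edgeR's quasi-likelihood test with Benjamini-Hochberg adjustment over all 12988 genes. Of the tachykinin genes 1 of 4 was called in this comparison, against 0.747% of all genes (0.416% as higher and 0.331% as lower in males). DESeq2 gave 0.78 (adjusted p 0.0167) and limma-voom 0.90 (adjusted p 0.0271), and these tools called 1.91% and 0.485% of all genes there.

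The Tac2 difference kept its direction in every fit, but not its call. With each of the 10 control libraries left out in turn it ran from 0.74 to 0.93, and the call was lost in 7 of the 10 fits. The adjusted p was 0.102 without female control 1, 0.0627 without female control 2, 0.105 without female control 5, 0.0739 without male control 1, 0.0532 without male control 2, 0.0793 without male control 4 and 0.0548 without male control 5. It passed without female control 3, female control 4 or male control 3, with adjusted p of 0.0297, 0.0370 and 0.0203.

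In stressed mice Tac2 measured 29.6, 38.9, 35.6, 34.4 and 25.0 CPM in females 1 to 5 and 61.9, 41.8, 26.3, 47.6 and 39.98 CPM in males. Of the stressed males, 4 again lay above every stressed female, while male stressed 3 lay below 4 of the 5. The sex difference was 0.38 (SE 0.18, 95% interval 0.01 to 0.75) and did not pass (adjusted p 0.689 by edgeR). Within males, all 5 stressed libraries lay below the median of the controls, 3 of them below every control, with group means of 61.9 ± 12.6 and 43.5 ± 12.9 CPM. The stress difference in males was -0.56 (SE 0.17, 95% interval -0.92 to -0.20), which did not pass (adjusted p 0.127). In females the means were 36.4 ± 7.75 and 32.7 ± 5.43 CPM and the difference was -0.10 (SE 0.19, adjusted p 0.957). Whether the stress difference depended on sex was tested by the interaction, which was -0.46 (SE 0.26, adjusted p 0.530).

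Tacr3, which encodes the NK3 receptor, had its highest group mean in male controls, though none of its differences passed by edgeR. It measured 12.2, 13.9, 14.2, 13.9 and 15.8 CPM in female controls 1 to 5 and 16.5, 14.9, 18.8, 17.6 and 15.4 CPM in male controls. Stressed females had 13.6, 12.1, 13.3, 13.0 and 10.99 CPM and stressed males 12.8, 13.7, 10.4, 14.9 and 14.6 CPM. Control and stressed males did not overlap: the lowest control, male control 2 at 14.93 CPM, stood just above the highest stressed library, male stressed 4 at 14.85 CPM. This was 1 of the 4 tachykinin genes, where 4.3% of all genes had groups that did not overlap (1.16% with stressed males lower). For stress in females, sex in controls and sex in stressed mice it held for 0 of the 4 genes, against 1.22%, 3.97% and 1.27% of all genes. The fitted difference of stress in males was -0.32 (SE 0.10, 95% interval -0.52 to -0.12) with an adjusted p of 0.120 by edgeR, so it did not pass. In females it was -0.15 (SE 0.10, adjusted p 0.754), and the interaction was -0.16 (SE 0.14, adjusted p 0.716). Averaged over the sexes, stress gave -0.24 (SE 0.07, unadjusted p 0.00264), with an adjusted p of 0.256 by edgeR. In controls males exceeded females by 0.25 (SE 0.10, adjusted p 0.223).

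Tac1, the substance P and neurokinin A precursor, ran the other way in males, with higher values after stress. Male controls 1 to 5 had 60.9, 81.4, 50.2, 65.3 and 74.4 CPM and stressed males 76.4, 95.9, 117, 94.96 and 78.6 CPM. All 5 stressed males lay above the control median and 3 above every control, the highest being male stressed 3, also the stressed male lowest in Tac2 and Tacr3. The difference was 0.48 (SE 0.14, 95% interval 0.18 to 0.78), a 1.40-fold level. Its adjusted p was 0.119 by edgeR and 0.0477 by DESeq2, so the tools fall on different sides of the threshold. Female controls had 98.2, 70.6, 69.99, 82.1 and 94.7 CPM and stressed females 73.8, 60.6, 88.3, 80.2 and 106 CPM. The female groups overlapped over most of their range, with a difference of -0.02 (SE 0.15, adjusted p 0.999). The male minus female difference was -0.32 (SE 0.15, adjusted p 0.310) in controls and 0.18 (SE 0.14, adjusted p 0.821) after stress, and the interaction was 0.50 (SE 0.21, unadjusted p 0.0236, adjusted p 0.416 by edgeR).

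Tacr1, the gene of the NK1 receptor, varied little in male controls, at 27.6, 28.1, 26.8, 27.3 and 25.9 CPM in libraries 1 to 5 (27.1 ± 0.844). Stressed males had 35.5, 37.3, 32.2, 27.3 and 28.4 CPM, of which libraries 1 to 3 and 5 lay above every control. The difference was 0.23 (SE 0.09, 95% interval 0.04 to 0.42) and did not pass (adjusted p 0.218 by edgeR). Female controls had 30.3, 25.9, 24.2, 30.5 and 32.3 CPM and stressed females 29.6, 24.7, 28.5, 30.4 and 32.3 CPM, which overlapped, with a difference of 0.04 (SE 0.09, adjusted p 0.971). The male minus female difference was -0.06 (SE 0.09, adjusted p 0.811) in controls and 0.13 (SE 0.09, adjusted p 0.803) after stress, and the interaction was 0.19 (SE 0.13, adjusted p 0.631).

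**Figure D2:**
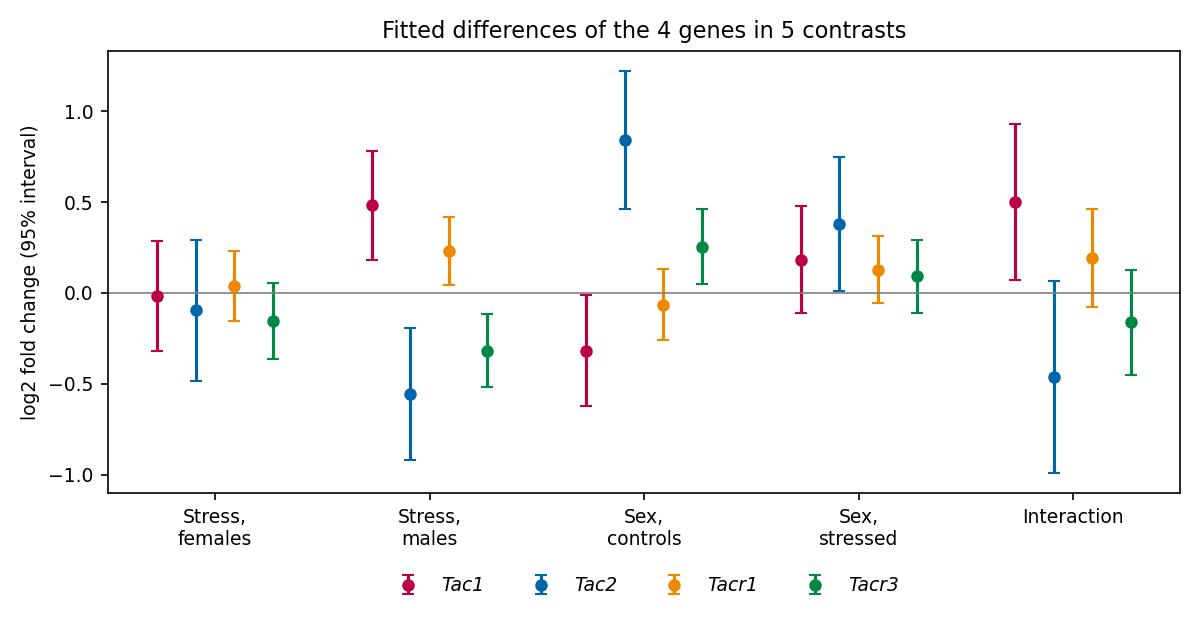
Log2 fold change (y axis) of each gene in 5 contrasts, from edgeR, with 95% intervals as bars. Sex contrasts are male minus female, stress contrasts stressed minus control, and the interaction is the male minus the female stress difference. The Tac2 sex difference in controls (0.84) is the 1 value that passed by edgeR after adjustment over all genes.

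The 4 genes, like the gene lists below, were chosen with earlier results of these data known, so counts set beside the share of all genes are descriptive. Across the 4 genes, stress in males gave an unadjusted p under 0.05 for 4 of 4, where 15.5% of all genes had one, and called 0 of 4 by edgeR and limma-voom and 1 of 4 (Tac1) by DESeq2. The share of all genes called there was 0.0077% by edgeR and by limma-voom, but 2.4% by DESeq2 (239 of the 9966 genes to which it gave an adjusted p). By sign, the values were -0.56 and -0.32 for Tac2 and Tacr3, the neurokinin B pair, against 0.48 and 0.23 for Tac1 and Tacr1, the substance P pair. None of these values passed by edgeR. Correlations with a striatal marker score, given below, had the same signs, and whether the split follows the peptide systems was not tested. Stress in females gave an unadjusted p under 0.05 for 0 of the 4 genes, against 7.51% of all genes, and calls for 0 of 4 by edgeR, DESeq2 and limma-voom. The sex difference in controls had an unadjusted p under 0.05 for 3 of 4 (15.3% of all genes), and that in stressed mice for 1 of 4 (7.06%), with 0 calls of 4 by each of the 3 tools and 0.077% of all genes called by edgeR. The interaction also had 0 calls of 4 by each tool and 1 of 4 at an unadjusted p under 0.05, against 10.4% of all genes. For stress averaged over the sexes, 3 of 4 had an unadjusted p under 0.05 (12.7% of all genes), and 0 of 4 were called by each tool. Without male stressed 3, the library at 1 end of several ranges above, stress in males gave 0.38 for Tac1, 0.22 for Tacr1, -0.41 for Tac2 and -0.23 for Tacr3. Male controls enter both the comparison by sex in controls and that by stress in males, so their high Tac2 and Tacr3 and low Tac1 bear on both.

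Ratios of 2 genes within a library do not depend on the scaling factor. The ratio of Tac2 to Tac1 counts, not corrected for gene length, was highest in male controls, at 1.08, 0.691, 0.862, 1.04 and 1.02 in libraries 1 to 5. In female controls they were 0.277, 0.483, 0.577, 0.578 and 0.346, all below every male control. The difference in the mean log2 ratio was 1.09 (-0.11 ± 0.27 against -1.20 ± 0.47, n = 5 each), with a two-sided exact permutation p of 0.00794, the smallest that 5 against 5 libraries can give, and 0.0952 after adjustment over the 12 ratio tests (3 ratios in 4 contrasts). In stressed males the ratios were 0.810, 0.436, 0.224, 0.501 and 0.509, lower than in male controls by 1.02 on the log2 scale (exact permutation p 0.0159, adjusted p 0.0952), with male stressed 1 alone inside the range of the controls. With 1 male library left out in turn the difference ran from -1.22 (without male stressed 1) to -0.76, and the adjusted exact permutation p from 0.0476 (without male stressed 1) to 0.143. In stressed females they ran from 0.235 to 0.641, overlapping the range of female controls (difference -0.11, exact permutation p 0.706), and after stress males exceeded females by 0.19 (exact permutation p 0.619).

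Each precursor was also set against its preferred receptor. The Tac2 to Tacr3 ratio ran from 2.07 to 3.41 in female controls and from 2.30 to 4.96 in male controls, a mean log2 difference of 0.52 (exact permutation p 0.0556, adjusted p 0.222). It ran from 2.52 to 4.84 in stressed males, a log2 difference from male controls of -0.20 (exact permutation p 0.405). The Tac1 to Tacr1 ratio ran from 1.88 to 2.89 in male controls and from 2.15 to 3.65 in stressed males (difference 0.25, exact permutation p 0.206), and from 2.69 to 3.24 in female controls (male minus female -0.26, exact permutation p 0.0873). For both precursor to receptor ratios the groups overlapped in all 4 contrasts.

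**Figure D3:**
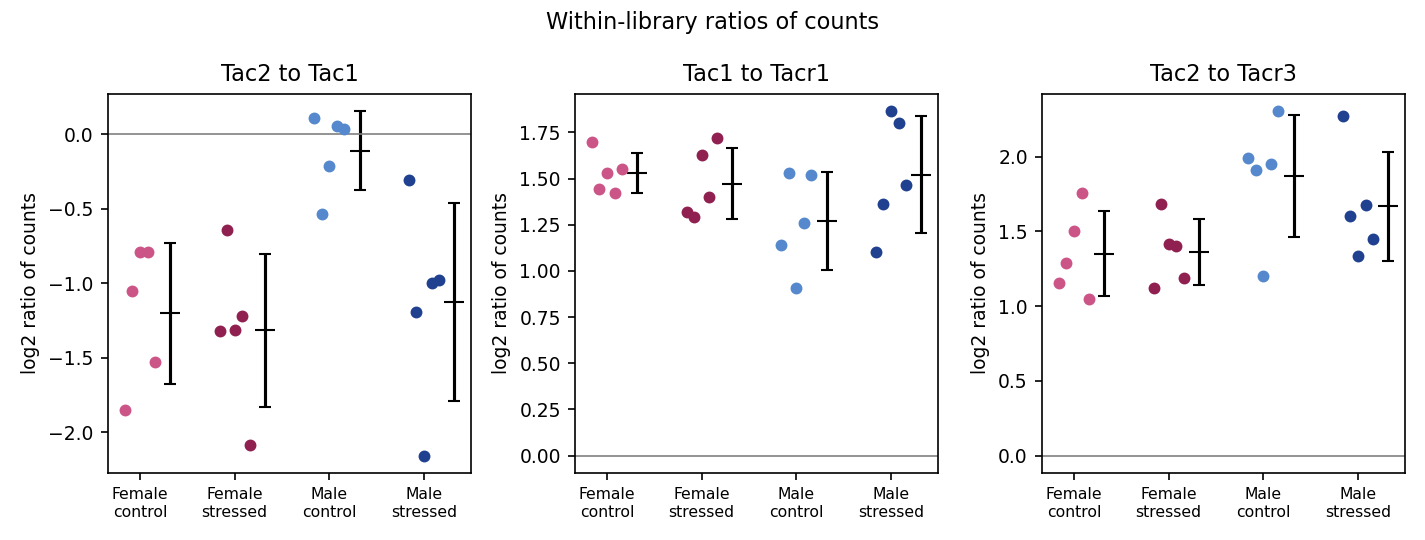
Log2 ratio of counts (y axis) of 3 gene pairs in every library by group, with mean ± SD over 5 libraries. For Tac2 to Tac1, male controls lie around 0 (-0.53 to 0.11) and every female control lies at or below -0.79.

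The 4 genes moved with a score of striatal neuron markers, the mean log2 CPM of 14 genes that hold none of the 4 (Drd1, Drd2, Adora2a, Ppp1r1b and others), centred on 0. All 14 were measured, and none was at 0. The score averaged -0.40 ± 0.14 in male controls, with a range of -0.52 to -0.16. It averaged 0.10 ± 0.34 for female controls (range -0.45 to 0.40), 0.13 ± 0.43 for stressed females (range -0.48 to 0.59) and 0.18 ± 0.27 for stressed males (range -0.01 to 0.59). The summed CPM of the markers spanned 2836 to 3586 (male controls), 2986 to 5350 (female controls), 2906 to 6035 (stressed females) and 4028 to 6090 (stressed males). The score of male controls thus lay below that of every stressed male. It was highest in female stressed 5 and male stressed 3, the libraries highest in Tac1 and lowest in Tac2 within their groups, and low in female control 3 and female stressed 2. How much the share of striatal tissue or cells in a dissection contributes was not tested, and in bulk tissue fewer cells of a type and less RNA per cell cannot be told apart.

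Over the 20 libraries Tac1 correlated with the striatal score at r 0.87 (rho 0.90) and Tacr1 at r 0.72 (rho 0.77), while Tac2 correlated at r -0.68 (rho -0.62) and Tacr3 at r -0.67 (rho -0.58). The permutation p-values of r, adjusted over the 4 genes, were 8e-05 for Tac1, 0.00058 for Tacr1 and 0.00114 for Tac2 and Tacr3. Those of rho were 4e-05, 0.0003, 0.00585 and 0.00847 in the same order (Tac1, Tacr1, Tac2, Tacr3). These correlations were added after the data were seen. Tac1 is itself a marker of striatal projection neurons, so its positive correlation was likely beforehand and its p-value adds little. The permutations shuffled libraries across groups, so differences between groups enter the p-values. Without female stressed 5 and male stressed 3, the libraries farthest from the median score, r was 0.82 for Tac1, 0.69 for Tacr1, -0.56 for Tac2 and -0.50 for Tacr3. After each group's mean was taken out r was 0.82, 0.71, -0.50 and -0.42 (Tac1, Tacr1, Tac2, Tacr3), values that were not tested.

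**Figure D4:**
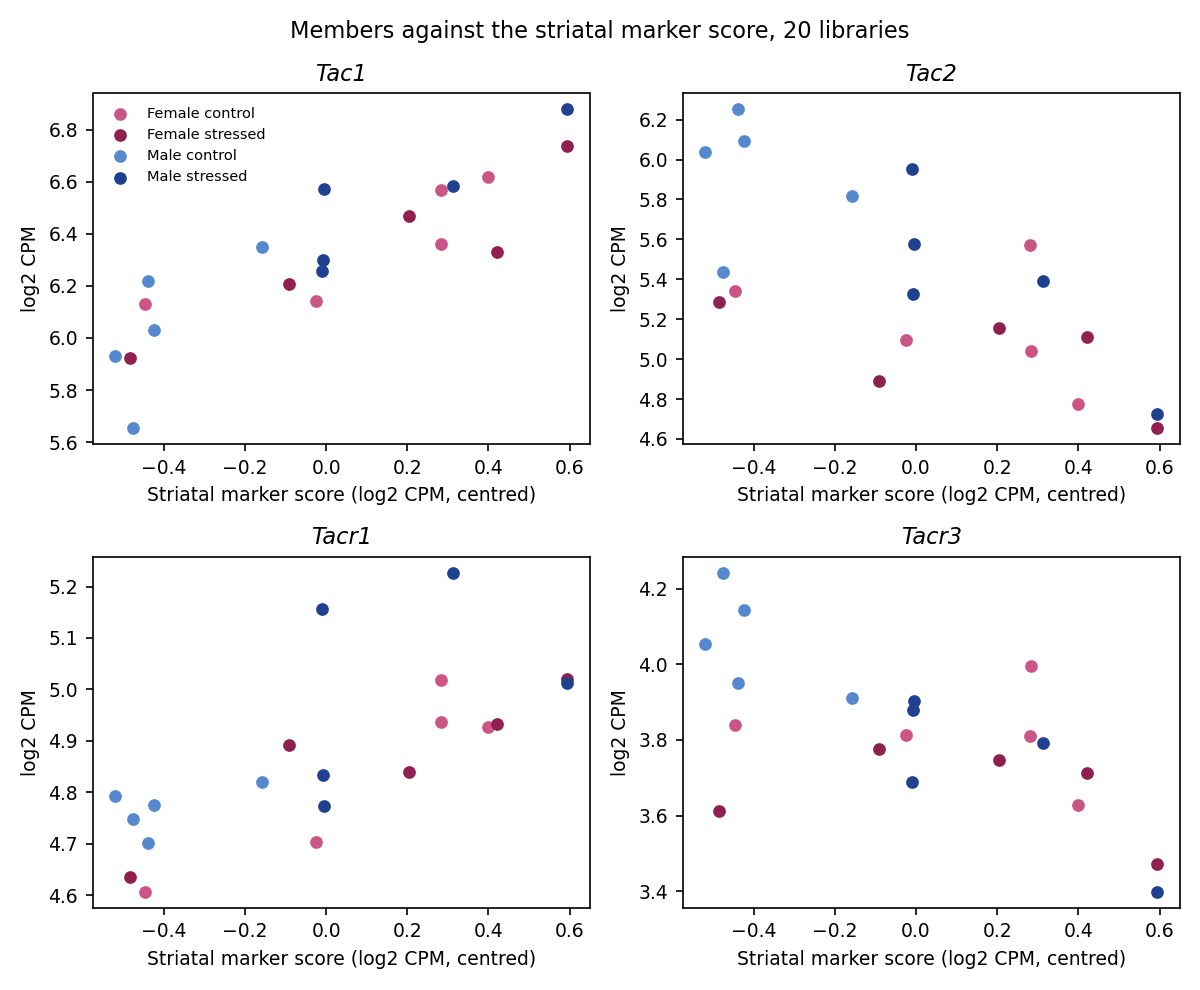
Log2 CPM of each gene (y axis) against the striatal marker score (x axis, mean log2 CPM of 14 genes, centred on 0). Each point is 1 of 20 libraries, coloured by group. Tac1 and Tacr1 increase with the score and Tac2 and Tacr3 decrease, and male controls lie at the low end of the score.

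With the striatal score as a covariate the differences were smaller for most of the genes. Stress in males gave 0.07 (SE 0.10) for Tac1, 0.02 (SE 0.09) for Tacr1, -0.25 (SE 0.18) for Tac2 and -0.19 (SE 0.11) for Tacr3. The scores of control and stressed males did not overlap, so these values extrapolate beyond any score that both groups had. In controls the male minus female difference of Tac2 was 0.59 (SE 0.18), against 0.84 without the covariate, with an adjusted p of 0.147 by edgeR, so the call was lost. That of Tac1 became 0.03 (SE 0.10). Of the female controls, only female control 3 (score -0.45) lay within the range of male controls (-0.52 to -0.16). The adjusted differences in controls thus rest on little overlap of scores. In stressed mice, whose groups had like scores, Tac2 differed by 0.39 (SE 0.15, adjusted p 0.374), close to the 0.38 without the covariate. An oligodendrocyte score as the covariate moved Tac2 in controls the other way, to 1.02 (SE 0.13, adjusted p 0.000134).

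**Figure D5:**
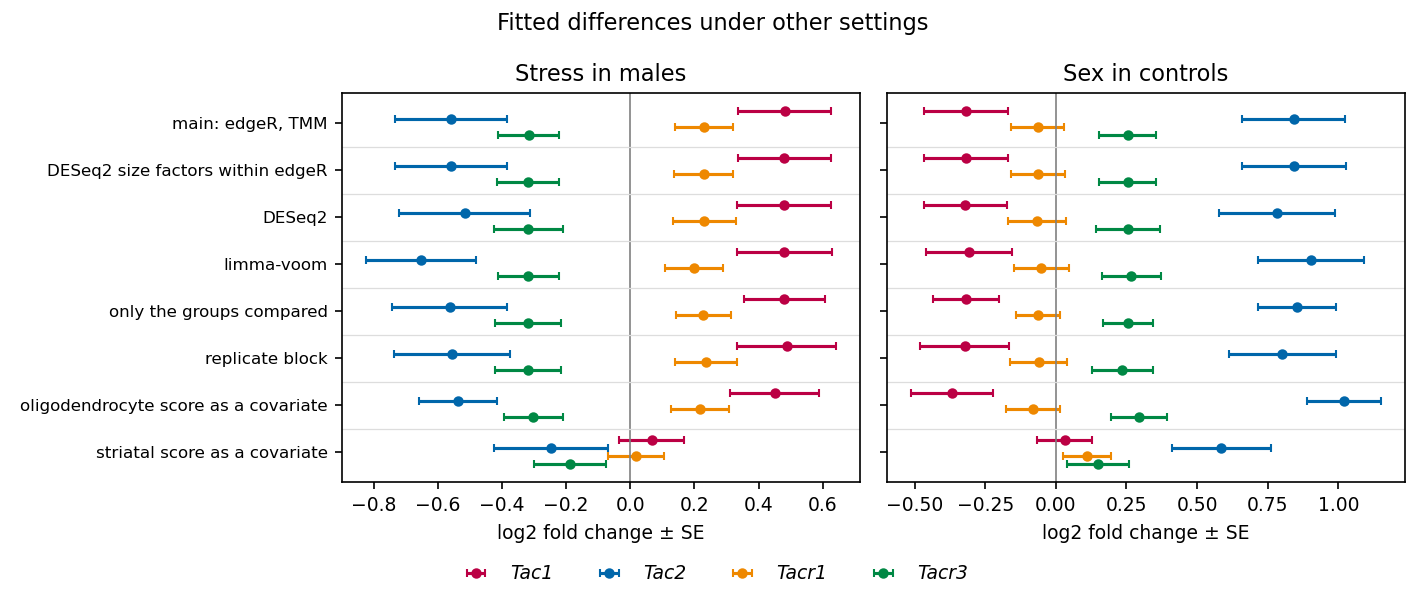
Log2 fold change ± SE (x axis) of the 4 genes for stress in males (left) and sex in controls (right) in the edgeR model with TMM scaling and in 7 other fits (rows). With the striatal score as a covariate Tac1 and Tacr1 lie near 0 for stress in males (0.07 and 0.02), and Tac2 in controls stays above 0 at 0.59.

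Whether the 4 genes varied together from library to library was asked for their 6 pairs, which share the library, its depth and its dissection. Tac1 and Tacr1 correlated at r 0.61 (rho 0.69, adjusted permutation p of r 0.00818 and of rho 0.00552) and Tac2 and Tacr3 at r 0.63 (rho 0.65, adjusted permutation p 0.00765 and 0.00843). Across the pairs the sign was negative: Tac1 and Tac2 gave r -0.51 (rho -0.48, adjusted permutation p 0.0322 and 0.0528) and Tac1 and Tacr3 r -0.65 (rho -0.49, adjusted permutation p 0.00765 and 0.0528). Tac2 and Tacr1 gave r -0.24 (rho -0.35, adjusted permutation p 0.301 and 0.127) and Tacr1 and Tacr3 r -0.38 (rho -0.44, adjusted permutation p 0.122 and 0.064). Without the 2 libraries farthest from the median of the first gene named, r was 0.61 for Tac1 with Tacr1, 0.57 for Tac2 with Tacr3, -0.51 for Tac1 with Tac2, -0.39 for Tac1 with Tacr3, -0.11 for Tac2 with Tacr1 and -0.40 for Tacr1 with Tacr3. The r of Tac1 with Tacr3 thus moved from -0.65 to -0.39 and no longer passed (adjusted permutation p 0.132). That of Tac1 with Tac2 stayed at -0.51 but did not pass either (adjusted permutation p 0.0648), with fewer libraries tested. With group means taken out, none of the 6 passed (lowest adjusted permutation p 0.103), at r 0.48 for Tac1 with Tacr1 and 0.29 for Tac2 with Tacr3.

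The genes most like each of the 4 were taken as the 5 with the highest Pearson r of log2 CPM over the 20 libraries, as a description. For Tac2 these were Cadps2, a regulator of dense-core vesicle release (r 0.93), Col25a1, a membrane collagen (0.91), Gal, the precursor of the neuropeptide galanin (0.90), Gpr165 (0.90) and Hcrtr1, a receptor for orexin (0.89). Their r with group means taken out ran from 0.77 to 0.90. Among controls galanin RNA had a mean of 12.5 CPM for males and 5.74 CPM for females (Gal, log2 difference 1.34, SE 0.38, adjusted p 0.0940 by edgeR), and Hcrtr1 had means of 3.91 and 2.00 CPM (1.15, SE 0.29, adjusted p 0.0566), so neither passed. For Tac1 the closest were Chn1 (0.93), Arpp19 (0.93), Ppp1ca (0.93), a catalytic subunit of protein phosphatase 1, Zfp365 (0.92) and Pmepa1 (0.92). For Tacr1 they were Ski (0.91), Ptprj (0.90), Lamb1 (0.89), Adcy9 (0.87), an adenylyl cyclase, and Dusp8 (0.87), and for Tacr3 Canx (0.87), Dgkk (0.86), Gabrg1 (0.82), a GABA-A receptor subunit, Meaf6 (0.81) and Hmgn5 (0.80).

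Of 19 other genes of the tachykinin pathway, edgeR called 2 for sex in controls (0.747% of all genes), both lower in males, and 0 in the other 5 contrasts. DESeq2 also called 2 in controls (1.91% of all genes) and, for stress in males, 5 (3 higher and 2 lower, against 2.4% of all genes), while limma-voom called 0 in each of the 6. Pcsk2, a convertase that cuts neuropeptide precursors in secretory granules, had a mean of 160 ± 11.4 CPM in control males against 214 ± 25.8 CPM in control females (log2 difference -0.42, SE 0.10, adjusted p 0.0400 by edgeR). Prkca, a protein kinase C downstream of Gq, had means of 172 ± 9.76 and 205 ± 13.5 CPM in the same groups (-0.25, SE 0.06, adjusted p 0.0476). For stress in males Pcsk2 gave 0.41 (SE 0.09) and Prkca 0.21 (SE 0.06), with adjusted p of 0.0871 and 0.108 by edgeR and of 0.0146 and 0.0488 by DESeq2. With the striatal score as a covariate these differences fell to 0.16 for Pcsk2 and 0.09 for Prkca (adjusted p 0.780 and 0.830 by edgeR). Both calls in controls were lost with the striatal score as a covariate (adjusted p 0.228 for Pcsk2 and 0.243 for Prkca by edgeR), where the sexes overlapped little in score. Of the 10 fits that each left out 1 control library, Pcsk2 lost its call in 8 (all but those without female control 2 or 3) and Prkca in 9 (all but that without female control 3), with the highest adjusted p, 0.136 and 0.155, without female control 5.

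By role, the 6 processing genes (Pcsk1, Pcsk2, Scg5, Pcsk1n, Cpe and Pam) had 1 call by edgeR in controls and a median log2 difference there of -0.08, against 0.0002 over all genes. The 6 genes of Gq signalling (Gnaq, Gna11, Plcb1, Plcb4, Itpr1 and Prkca) had 1 call by edgeR and a median of -0.17 there, where 0.747% of all genes were called. For stress in males their median was 0.14, with 3 of 6 at an unadjusted p under 0.05, against 15.5% of all genes. Of receptor desensitization 4 of 6 listed genes were measured (Grk2, Grk3, Arrb1 and Arrb2), with 0 calls by edgeR. Of these Arrb2, an arrestin that uncouples activated receptors, had the smallest p, with 34.2 ± 1.57 CPM after stress in males against 42.3 ± 3.78 CPM without it (-0.31, SE 0.07, adjusted p 0.0806 by edgeR and 0.00956 by DESeq2). With the striatal score as a covariate the Arrb2 difference was -0.26 (adjusted p 0.780 by edgeR). Of the peptidases that break tachykinins down, 3 of 4 listed were measured (Mme, which encodes neprilysin, Ace and Ece1), with 0 calls by edgeR. Ace had the smallest p, for stress averaged over the sexes (-0.16, SE 0.08, unadjusted p 0.0490, adjusted p 0.390 by edgeR). Over all 19, stress in males had 7 at an unadjusted p under 0.05 (5 higher, 2 lower), where 15.5% of all genes had one, and stress in females had 1, where 7.51% of all genes did.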

How the data were processed

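RNA was sequenced from 20 libraries of mouse adBNST, each from 3 pooled mice, prepared by a strand-specific kit, per the labels. STAR, featureCounts and build mm10 are named in the submitters' processing notes; versions, annotation, strand setting and any filter are not given in the sources used here. The deposited table holds raw whole-number counts per gene symbol for 12988 genes, all with a row total of at least 1002. Its 20 columns were matched to groups by label, with 0 left over.

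Counts were tested with edgeR 4.0.16 in R 4.3.3 (TMM, 1 model with 4 group means, quasi-likelihood test, two-sided, Benjamini-Hochberg over all genes, called at an adjusted p under 0.05). filterByExpr kept all 12988 genes. SE and 95% intervals come from that fit. Log2 CPM used a prior count of 2, and ratios added 0.5 counts. Correlation p-values used 100000 permutations. The edgeR fit was tested on simulated counts for sex in controls, and the other steps were not. The members and lists were chosen with earlier results of these data known. Named genes were the 4 members, pathway genes called in any contrast or else the smallest p of each list, and the 5 genes most like each member; the correlations with the striatal score were added after the data were seen. Alternatives were DESeq2 1.42.0, its size factors, limma-voom (limma 3.58.1), the robust option, other count filters, fits of the compared groups alone, a block on replicate numbers, 2 score covariates and leaving out each library.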

Additional observations from a re-analysis of the deposited data

How the results depend on the processing

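The 24 fitted differences (4 genes in 6 contrasts) kept direction and side of the threshold in 225 of 232 fits under other settings and in 467 of 480 fits that left out 1 library. Only 1 of the 24 was called in the main fit, so these counts mostly show uncalled differences staying uncalled. The called one, Tac2 for sex in controls, lost its call in 7 of the 10 fits that left out a control library. Fits without a count filter repeated the main fit, since filterByExpr had kept all genes. With the striatal score as a covariate, signs changed for Tac1 in controls (0.032) and for Tacr1 in controls (0.11) and in the interaction (-0.0025), and 0 of the 4 genes were called for sex in controls. With the oligodendrocyte score Tac2 changed sign for stress in females (0.16). DESeq2 called 1 of the 4 genes, Tac1, for stress in males, where it called 239 of 9966 genes (2.4%) and edgeR 1 of 12988. The cause was not tested. The replicate number as a block also left 0 calls of 4 for sex in controls (Tac2 0.80, adjusted p 0.0759). Nothing in the labels says that equal numbers mark a shared litter or day: of 30 same-numbered pairs of libraries 5 deviated together with r over 0.1 (range -0.47 to 0.24), and 0 of 20 libraries correlated best with their own number.

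Leaving out 1 library gave 0 to 1 calls of 4 for sex in controls. It moved stress in females from -0.14 to 0.078 for Tac1 and from -0.020 to 0.10 for Tacr1. The ratio of Tac2 to Tac1 ranged from -1.22 to -0.76 for stress in males, -0.28 to 0.080 for stress in females and -0.016 to 0.45 for sex in stressed mice. That of Tac2 to Tacr3 for stress in females ranged from -0.068 to 0.11, and that of Tac1 to Tacr1 for sex in stressed mice from -0.038 to 0.15. With group means taken out, correlations no longer passed for Tac1 with Tac2 (-0.38), Tacr1 (0.48) and Tacr3 (-0.53) and for Tac2 with Tacr3 (0.29), nor without 2 far libraries for Tac1 with Tac2 (-0.51) and Tacr3 (-0.39). The number of all genes called for sex in controls, 97, ran from 48 with the block to 340 with the oligodendrocyte score, and was 32 with female control 5 left out and 214 with female control 3 left out. For stress in males, 1 gene was called, against 303 with only the male groups fitted, 239 by DESeq2 and 0 to 232 without 1 library. DESeq2 called 22 genes for the interaction and 13 for averaged stress, where edgeR called 0, and averaged stress had 150 without female stressed 2. In stressed mice 10 were called by edgeR, 3 with at least 10 counts in every library, which tests fewer genes.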
